A study of Mus musculus with 18 samples.

Results

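The nuclear circRNA lists of the mouse fibroblast line NIH/3T3, derived from embryos, held 442 circles whose ends lay on no annotated exon edge. They were chosen by position alone: a circle listed at a single position counted as off-edge when its first base was not the first base, and its last base not the last base, of any exon in the gene annotation used for the mRNA-seq counts. They made up 442 of 1166 nuclear circles, beside 677 with both ends on exon edges, 40 with 1 end on an edge and 7 listed under several positions. The whole series listed 16171 circles. No off-edge circle was found among the 9648 single-position circles of the cytoplasmic lists or the 10700 of the whole-cell lists, and whether those lists had been restricted to exon edges before deposition is not given in the sources used here. Their absence there is therefore an absence from the lists. It was shared by the 40 nuclear circles with 1 end on an edge, none of which was in a cytoplasmic or whole-cell list. Of the 677 with both ends on edges, 69.7% were in a cytoplasmic list and 72.8% in a whole-cell list.

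The nuclear libraries came from wild-type (WT) cells and from XPO4 knockout (KO) cells, with 2 libraries of each genotype. XPO4 is a nuclear export receptor, and the study asked whether its loss changes which circRNAs stay in the nucleus. The KO cells were 1 line made with CRISPR-Cas9, and no other agent was given to either genotype. Nuclei were washed free of cytoplasm with detergents, and RNase R, an exonuclease that digests linear RNA, was applied before the libraries were made. Nothing in the sources says that the 2 libraries of a genotype came from separate cultures, so p-values measure only the spread between these libraries. Fewer cells and less RNA per cell cannot be told apart in such bulk samples.

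The nuclear libraries were shallow. The WT libraries held 2189 and 2635 junction reads and the KO libraries 3743 and 4383. The mRNA-seq libraries, 3 of each genotype, held 16974062 to 22057323 counted reads. All 8 fibroblast markers examined were detected, with a summed level of 2954 to 3056 FPKM in WT and 3087 to 3211 in KO, while all 4 epithelial markers together reached at most 0.128 FPKM. Of the other lists, the 6 neuronal markers summed to at most 2.35 FPKM, the 4 germ cell markers to at most 1.30 and the 4 leukocyte markers to at most 6.01. Xpo4 mRNA stood at 2.97 ± 0.0979 FPKM in WT and 3.37 ± 0.651 in KO (SD, n = 3 libraries each), a log2 difference of 0.18 ± 0.11 (SE) with an adjusted p of 0.193 by edgeR. The Xpo4 level thus did not tell the genotypes apart, and the headings of the deposited mRNA-seq counts carry the opposite genotype's name. Directions in mRNA given here rest on the sample titles. The labels' extraction text speaks of peripheral blood, while their source field names NIH/3T3.

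A circRNA forms when the spliceosome joins a downstream 5′ splice site, or donor, back to an upstream 3′ splice site, or acceptor. In most annotated circRNAs both sites are edges of exons. The acceptor is an AG preceded by a run of C and T, bound by U2AF, and the donor is a GT that pairs with U1 snRNA, for which GTAAG and GTGAG are common forms. Junctions in these lists come from find_circ, which looks for reads split in reverse order and keeps those flanked by AG and GT.

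The ends of 8 off-edge circles are shown first, since the results turn on what lies beside them. They are 4 with the smallest p between genotypes and 4 with the most reads, with ties at the fourth place of each broken by the order of their chromosome names, read on the strand given by their flanks from the GRCm38 (mm10) genome of RefSeq. The first sequence of each runs from 18 bases before the AG to 10 bases into the circle, and the second from the last 10 bases of the circle past the GT. Capitals mark the AG and the GT.
chr1:159665055-159665437, plus strand, first end: tgacagctcctttttctcAGttattacatt
chr1:159665055-159665437, plus strand, last end: aacactgtatGTattatatgctgttccaac
chr1:36105517-36105697, minus strand, first end: ggttccccaaaatgccccAGgttccccgca
chr1:36105517-36105697, minus strand, last end: accccccaagGTcaagtgcctggtgccaca
chr2:154136074-154136230, minus strand, first end: agcgactgtgtggatggaAGtggtggtggc
chr2:154136074-154136230, minus strand, last end: gagatggaatGTaaagcccgatatgttaag
chr10:19298338-19298514, plus strand, first end: caaatcttgcaatagaaaAGattcacagag
chr10:19298338-19298514, plus strand, last end: tcccttctctGTgaacaaagagtaccttcc
chr4:133034263-133035081, minus strand, first end: tctgcagagaaaggccctAGctctgtcatc
chr4:133034263-133035081, minus strand, last end: tgtgtaaacgGTgtgttctaataaaattta
chr5:17146031-17146332, plus strand, first end: agaaataaaggacatccaAGgtagaaaaga
chr5:17146031-17146332, plus strand, last end: tttgtcatttGTagatttaattttttcaaa
chr5:17179851-17180008, minus strand, first end: tatataaagtcaaatattAGaattatttta
chr5:17179851-17180008, minus strand, last end: aagatattctGTaacctttaacggtgtgta
chr12:109680764-109682347, plus strand, first end: gcacccactaagcaattaAGgtgtgcagtt
chr12:109680764-109682347, plus strand, last end: agcaattaagGTgtgcagttggctagggag

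For comparison, the same stretches of the 2 nuclear circles with the most reads and both ends on exon edges are shown. They lie in Nfix, a transcription factor gene, and Fgfr1, a fibroblast growth factor receptor gene, and had 110 and 78 junction reads over the 4 libraries.
Nfix circle, chr8:84771784-84772315, minus strand, first end: tcccggcttgccgcctgcAGgatgagttcc
Nfix circle, chr8:84771784-84772315, minus strand, last end: cacactccggGTaggttgctctcatcaacc
Fgfr1 circle, chr8:25555508-25555774, plus strand, first end: cttgtgggtggctgctgcAGctcagccctg
Fgfr1 circle, chr8:25555508-25555774, plus strand, last end: aatgtctcagGTtggtagcaatgccctctg

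All 442 off-edge circles had the AG and the GT, 245 on the plus and 197 on the minus strand, as the caller requires. The bases around them differed from those of circles on exon edges. In the 18 bases before the AG, the median share of C and T was 50% in off-edge circles and 77.8% in circles with both ends on edges. AGs inside the off-edge circles, which are not their ends, also had a median of 50%. A share of at least 70% was seen in 46 off-edge circles (10.4%) and in 542 both-edge circles (80.1%). The letters GTAAG or GTGAG stood at the last end of 22 off-edge circles (4.98%) and of 397 both-edge circles (58.6%). Among all GTs inside the off-edge circles 3.88% were part of these letters, read on the strand of the circle. The last base of the circle was a G in 51.6% of off-edge and 82.0% of both-edge circles. For this base no share inside the circles was taken. The median GC content of off-edge circles, which counts G and C together, was 42.3%, below that 51.6%. These shares are descriptions of sequence, without a test over regions.

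**Figure D1:**
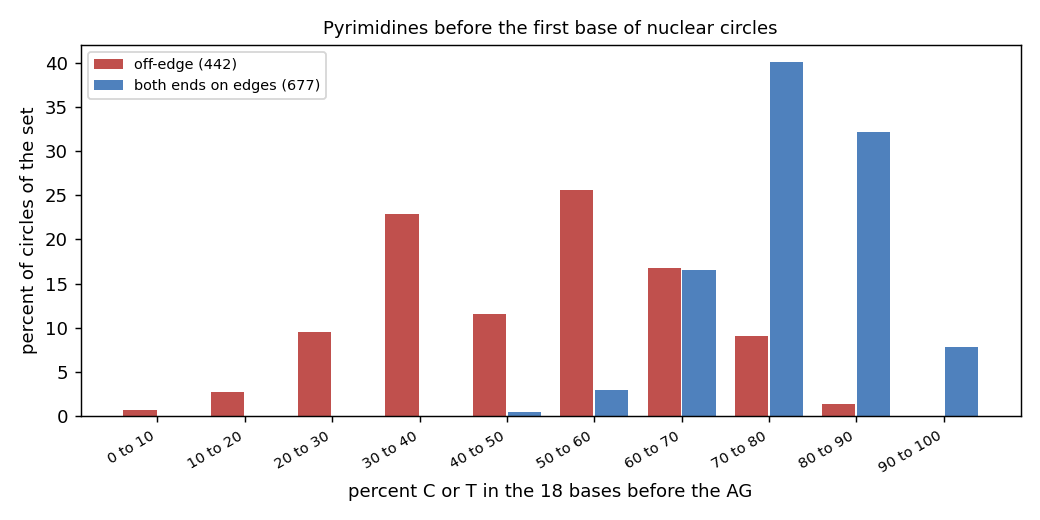
The percent of circles (y axis) is plotted against the percent of C or T in the 18 bases before the AG (x axis, bins of 10, which hold 1 or 2 of the values that 18 bases allow) for 442 off-edge circles (red) and 677 circles with both ends on exon edges (blue). Off-edge circles center on 50% and both-edge circles on 77.8%.

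Both features, a C and T share of at least 70% and a GTAAG or GTGAG donor, were present in 5 off-edge circles (1.13%) against 319 both-edge circles (47.1%). These 5 were named after their values were seen. The ends of the longest pair among them are printed, with the AG and GT in capitals, since they carry both features.
chr3:83719537-83749063, minus strand, first end: gttttcctttcacttctcAGgtcatgtatc
chr3:83719537-83749063, minus strand, last end: tcctaaaaacGTaagtacacaggcttcatc
chr11:12187974-12195334, plus strand, first end: tgttgctcttgccttttcAGctctccaatt
chr11:12187974-12195334, plus strand, last end: cttagttcatGTaagtgtaggcaaacccca

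The chr3 circle spanned 29527 bases and had 2 and 0 WT reads against 4 and 5 KO reads. The chr11 circle spanned 7361 bases and had 0 and 1 WT reads against 3 and 4 KO reads. In both, the KO counts lay above the WT counts, as they did in 47.3% of all nuclear circles, and the KO libraries were the deeper ones. The other 3 were chr10:104097680-104097961, chr4:6341533-6341776 and chr16:34103930-34104183, the last antisense to Kalrn. The chr10 circle went the other way, with 2 and 4 reads in the WT libraries against 1 and 0 in the KO libraries, and the chr4 circle overlapped, with 1 and 2 against 3 and 1. The chr16 circle had 0 and 0 against 3 and 4. They spanned 282, 244 and 254 bases, and those on chr10 and chr4 lay outside annotated genes, as did the chr3 and chr11 circles.

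Off-edge circles were short. Their median genomic span was 229.5 bases, against 4990 in both-edge circles, and 296 of them (67.0%) spanned under 300 bases, against 21 both-edge circles (3.10%). The shortest spanned 150 bases, which is the read length that the labels give. It lay in an intron of Magi2, a scaffold protein gene, and is printed whole from its AG to its GT, as is the 158-base circle outside annotated genes that was among those with the most reads.
Magi2 intron, chr5:19837903-19838052, plus strand: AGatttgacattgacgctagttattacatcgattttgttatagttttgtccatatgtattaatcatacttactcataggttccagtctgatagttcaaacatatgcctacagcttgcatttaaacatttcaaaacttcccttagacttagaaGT
Outside genes, chr5:17179851-17180008, minus strand: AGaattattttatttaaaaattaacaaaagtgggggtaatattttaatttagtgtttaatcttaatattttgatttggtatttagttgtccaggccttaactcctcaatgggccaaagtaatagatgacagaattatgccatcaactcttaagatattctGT

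The Magi2 intron circle had 1 and 0 WT reads against 3 and 1 KO reads, with overlapping groups. At the other extreme, 58 off-edge circles spanned 1000 bases or more. The 3 longest were chr4:121323900-121422085, chr9:109556705-109651169 and chr5:105093815-105171405, with 98186, 94465 and 77591 bases, and all 3 crossed the end of a gene.

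**Figure D2:**
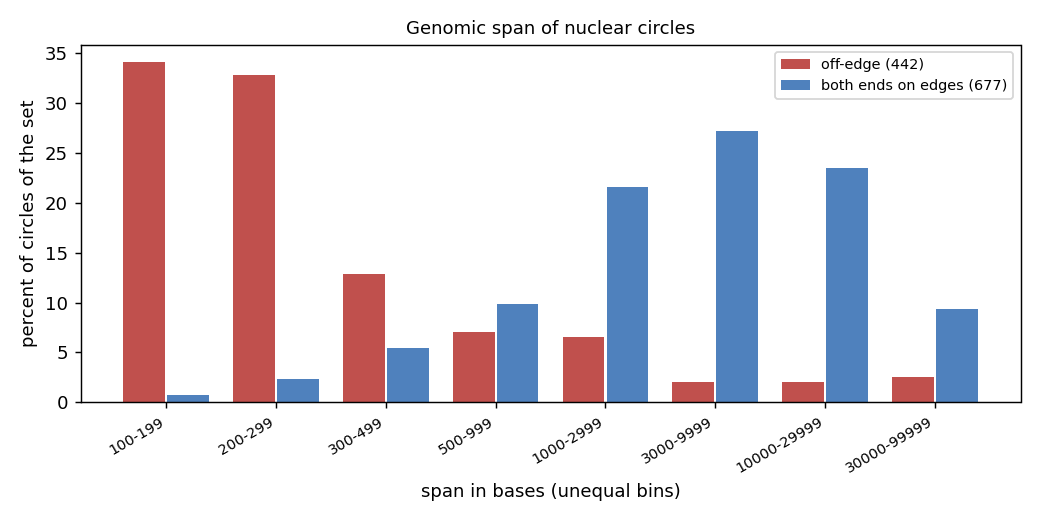
The percent of circles (y axis) is plotted by genomic span in bases (x axis, bins of unequal width) for 442 off-edge circles (red) and 677 both-edge circles (blue). Of the off-edge circles 67.0% fall under 300 bases, against 3.10% of the both-edge circles.

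A direct repeat is the longest run of bases that occurs at both junction ends, so that the exact join could be shifted along it. It was 0 in 144 off-edge circles, 1 to 9 bases in 276 and 10 or more in 22, up to 105 bases, whereas no both-edge circle had 10 or more. The 22 had a median span of 17986.5 bases, and 13 of them crossed the end of a gene. In the printed chr12:109680764-109682347 circle, which lies over exon sequence of the gene B830012L14Rik, the repeat was 73 bases, and the same letters can be read on both sides of its AG and its GT. These 22 circles had 67 reads in WT and 130 in KO, and as a share of all junction reads their mean was 1.38% in WT and 1.59% in KO.

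By place, 129 off-edge circles (29.2%) lay outside annotated genes and 160 (36.2%) lay in a gene but on its opposite strand. A further 109 (24.7%) lay on the sense strand in intron only, 22 included exon sequence of a gene on its own strand, and 22 crossed a gene end. The strand is that of the AG and GT, since the lists give none. Of both-edge circles 675 (99.7%) were sense and included exon sequence. The ends were not near misses of the annotation: 306 off-edge circles had both ends over 1000 bases from an exon edge, 3 had an end within 5 bases, none had an end on an edge of GENCODE vM21, and 1 had an end on a RefSeq edge. No 2 members shared an end.

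**Figure D3:**
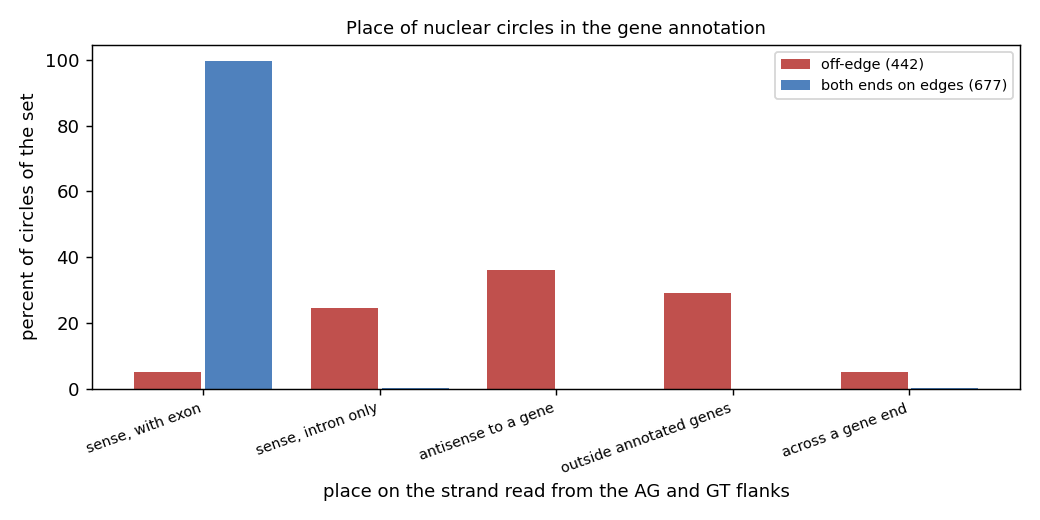
The percent of circles (y axis) is plotted by place in the gene annotation (x axis) for 442 off-edge circles (red) and 677 both-edge circles (blue). Antisense (36.2%) and outside genes (29.2%) are the most frequent places of off-edge circles, while 99.7% of both-edge circles are sense with exon.

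Members were spread over many genes. On either strand 279 genes held at least 1, but only 9 held 2 or more. Fn1, which encodes the matrix protein fibronectin and had 987 ± 51.1 FPKM in WT and 854 ± 114 in KO (SD, n = 3), held 4, all antisense. Malat1, an abundant nuclear noncoding RNA at 154 ± 15.4 FPKM in WT and 158 ± 49.1 in KO, held 3. Atrn, Dip2c, Efna5, Khdrbs2, Nrg1, Ptprk and Runx2 held 2 each. Runx2 encodes a transcription factor of bone cells, Nrg1 a growth factor ligand and Efna5 an ephrin ligand.

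The Malat1 circles overlapped its transcript on the sense strand at chr19:5796326-5796850 and chr19:5802304-5802517, and on the antisense strand at chr19:5801662-5801857. They had 1 and 2, 0 and 1, and 2 and 1 reads in the WT libraries, and 3 and 5, 2 and 2, and 4 and 6 in the KO libraries. In each of the 3 the KO counts were all above the WT counts, beside 47.3% of all nuclear circles. Reads of a gene and its antisense partner cannot be told apart by the counting, which was not set to use strand.

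The 131 circles with a sense host, in 128 genes, had a median host level of 3.80 FPKM, and 77 (58.8%) had a host at 1 FPKM or more, while 21 had a host listed at 0. Both-edge circles had a median of 9.02 FPKM and 95.7% at 1 or more, with no host listed at 0. Hosts of off-edge circles thus had the lower median, given here without a test over circles. Genes on the opposite strand of antisense members, 154 in number, had a median of 4.61 FPKM over the 160 circles.

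Reads of a member were few and even. The sum over the 4 nuclear libraries had a median of 9 and ran from 3 to 20, and its variance was 0.892 of its mean. In both-edge circles that ratio was 4.83, the median sum 11 and the highest 110. Circles with 1 end on an edge had a ratio of 1.42, a median sum of 9 and a highest sum of 26. WT replicate 1 listed 391 members, WT replicate 2 366, KO replicate 1 404 and KO replicate 2 395. All 4 libraries listed 253 members and 3 libraries listed 166. Only the KO libraries listed 11, only the WT libraries listed 12, and every member was listed in both libraries of at least 1 genotype. The study's methods mention that circRNAs detected in the replicates were merged, and no threshold on reads is given in the sources used here.

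The 3 members with the most reads were the antisense Ahdc1 circle chr4:133034263-133035081 and the chr5 circles chr5:17146031-17146332 and chr5:17179851-17180008. The Ahdc1 circle was read 2 and 6 times in WT and 6 and 6 times in KO. Each chr5 circle was read 2 and 6 times in WT and 4 and 7 times in KO. In all 3 the genotypes overlapped, and edgeR's quasi-likelihood test gave adjusted p = 0.769 for the first and 0.669 for the chr5 circles.

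Off-edge circles took a smaller share of nuclear junction reads in both KO libraries than in either WT library. Their reads numbered 753 and 1042 in the WT libraries and 916 and 1363 in the KO libraries, so the counts overlapped. As a share of all nuclear junction reads they made up 34.4% and 39.5% in WT and 24.5% and 31.1% in KO, and these groups did not overlap. The mean share was 37.0% ± 3.64 in WT and 27.8% ± 4.68 in KO (SD, n = 2), a difference of -9.19 percentage points with p = 0.333 in a two-sided exact permutation test, the smallest p that 2 against 2 libraries can give. The both-edge circles numbered 1352 and 1465 reads in the WT libraries against 2679 and 2813 in the KO libraries. Their KO mean was 1.95 times that of WT, against 1.27 times for off-edge reads (p = 0.667, exact permutation test). With only the circles of at least 10 reads the difference was -2.83 percentage points and the libraries of the genotypes overlapped (p = 0.667, exact permutation test). The lower share was not particular to off-edge circles. For circles with 1 end on an edge, KO replicates 1 and 2 held 2.51% and 3.15% of the reads. Both values lay below those of WT replicates 1 and 2, at 3.24% and 3.53% (p = 0.333, exact permutation test). A share of a total cannot say which of the sets moved.

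**Figure D4:**
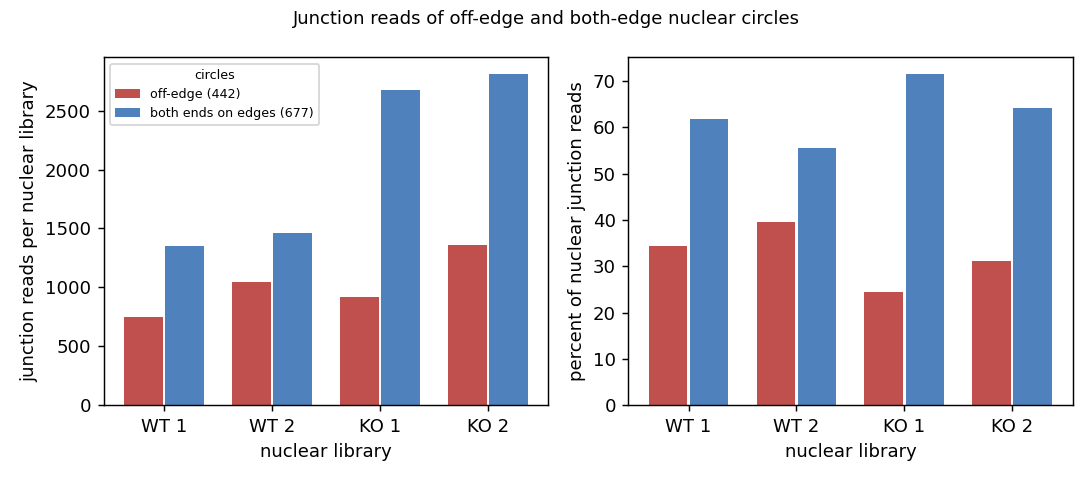
Junction reads (left) and percent of all nuclear junction reads (right) are plotted for the 2 WT and 2 KO nuclear libraries (x axis), for off-edge (red) and both-edge circles (blue), as bars from 0. The off-edge share is 34.4% and 39.5% in WT and 24.5% and 31.1% in KO, while both-edge reads number 1352 and 1465 in WT and 2679 and 2813 in KO.

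The share of off-edge circles outside annotated genes was 11.0% and 12.3% in WT and 6.68% and 7.44% in KO. For those in sense introns it was 8.41% and 9.15% in WT against 6.04% and 7.60% in KO. For antisense circles the groups overlapped, with a mean of 13.2% ± 1.73 in WT and 10.8% ± 2.56 in KO (SD, n = 2). The first 2 places had KO shares below both WT shares, each with p = 0.333 in the exact permutation test.

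On average 378.5 members were listed in WT and 399.5 in KO (p = 0.333, exact permutation test). The mean log10 junction reads of the listed members was 0.298 in WT and 0.370 in KO with overlapping libraries (p = 0.667, exact permutation test). When each library was scaled to the same total of junction reads, the means were 0.427 in WT and 0.273 in KO, the other direction (p = 0.333, exact permutation test).

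Across members, counts of libraries of the same genotype went together and those of different genotypes went apart. Spearman's rank correlation over the 442 was 0.372 between the WT libraries, 0.595 between the KO libraries and -0.283 to -0.570 between genotypes, against -0.0628 to -0.126 in both-edge circles. The points share libraries and the inclusion of a circle in the lists, so these are descriptions. In the plot of summed reads, few members lie high in both genotypes: 25 of 442 had at least 5 reads in each genotype, beside 119 of 677 both-edge circles. The WT sum exceeded the KO sum in 180 members, the KO sum exceeded the WT sum in 251, and 11 had equal sums. These sums are not scaled, and the KO libraries were the deeper ones.

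**Figure D5:**
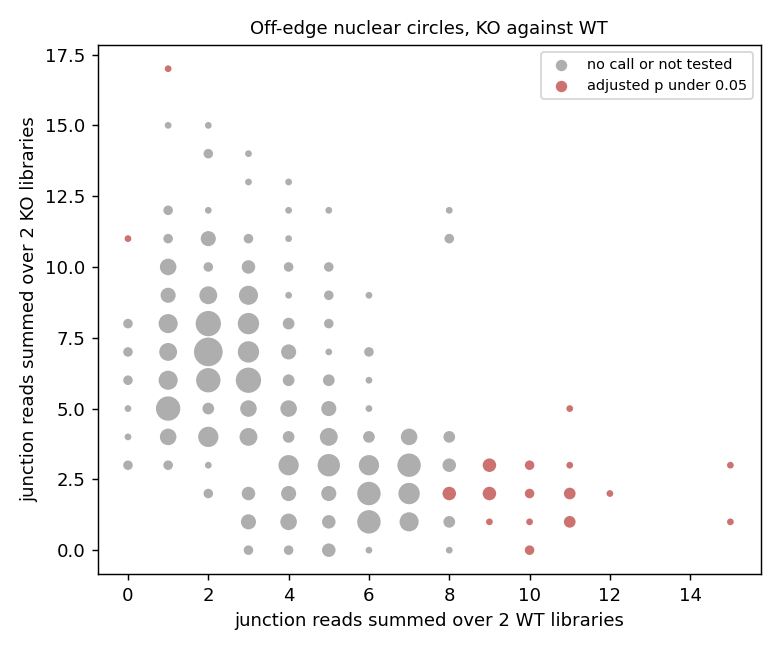
Each point shows members with the given junction reads summed over the 2 WT libraries (x axis) and the 2 KO libraries (y axis), with an area in proportion to their number. Red points passed an adjusted p of 0.05 in edgeR, 31 lower and 2 higher in KO.

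Between genotypes, both KO counts lay above both WT counts in 155 members (35.1%) and below both in 91 (20.6%). In all nuclear circles these percentages were 47.3 and 13.6. The test by edgeR ran over all nuclear circles with at least 10 reads and called 66 of 651, a background of 10.1%, with 8.45% lower and 1.69% higher in KO. Of the 442 members 186 had enough reads for the test, and 33 were called, 31 lower and 2 higher in KO. Passing the filter on low counts depends on the same reads as the test, so this count is a description of the members that passed. Every member was also listed in both libraries of at least 1 genotype, so agreement of replicates is built into the lists. The chi-square between replicates per member was 0.795 in WT and 0.624 in KO, less than counting error alone would give. The p-values may therefore be too small. The median log2 difference of the tested members was 0.13, and that of all tested nuclear circles 0.44. The calls rested on the tool and the scaling: DESeq2 called 0 of the 186, with 30 at an unadjusted p under 0.05 (1 higher and 29 lower in KO). Over all 651 nuclear circles tested, DESeq2 had 57 at that level (8 higher and 49 lower). edgeR without scaling called 0 of the 186, with 41 at that level (25 higher and 16 lower). Over the 651 it had 173 (150 higher and 23 lower). Leaving out a library leaves 1 in a genotype, so only the size of the difference is given. The median log2 difference of tested members was 0.07 without KO replicate 1, -2.03 without KO replicate 2, 0.31 without WT replicate 1 and 0.23 without WT replicate 2. In all nuclear circles tested it was -0.0044, -0.20, 0.18 and 0.23.

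The member with the smallest p lay in an intron of Tnr, which encodes the matrix protein tenascin R. In WT it had 7 and 8 reads and in KO 0 and 1, so the groups did not overlap. The ratio of KO to WT reads was 0.0667 with an exact interval of 0.00158 to 0.433 that covers counting error only, and the log2 difference was -4.47 ± 0.89 (SE) with an edgeR adjusted p of 0.000355. Tnr mRNA was also lower in KO, at 0.620 ± 0.0944 FPKM in WT and 0.216 ± 0.0415 in KO (SD, n = 3; edgeR adjusted p = 1.71e-05).

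For 2 members no KO read was listed. The circle in an intron of Gm37335 had 2 and 8 reads in WT, and the circle antisense to Bpifa3 had 5 and 5. Raw WT reads of each were 3.33 times a floor of 3 counts over the KO group, without scaling for depth (edgeR adjusted p = 0.000752). Both circles reached the filter of 10 reads through WT reads alone. So did each of the 10 members with the smallest p, the Tnr circle among them, with 10 to 15 WT reads each. Their p-values only describe members that passed. Gm37335 and Bpifa3 were listed at 0 in all 6 mRNA-seq libraries.

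Among the 10 with the smallest p, the last of which tied with 2 others, 4 more were antisense to genes beside that of Bpifa3. The circle antisense to Csmd3 had 3 and 12 WT reads against 0 and 3 KO reads, so the groups met at 3. Those antisense to Srrm3, a splicing factor gene of neurons, Sipa1l2 and Kmt2d, a histone methyltransferase gene, had 3 and 8, 4 and 7, and 2 and 10 in WT. In KO they had 1 and 0, 0 and 1, and 0 and 2, with edgeR adjusted p from 0.00244 to 0.00406. A member in an intron of Gm33056 had 4 and 7 reads in WT against 0 and 1 in KO, and 2 outside genes, chr3:125939176-125939330 and chr13:18080833-18081008, had 3 and 7 against 0 and 1, and 3 and 8 against 1 and 1. All 31 members called lower had 8 to 15 reads in WT and 0 to 5 in KO, and 21 of them had at most 1 read in each KO library.

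Another 2 members were called higher in KO. One is the antisense Fn1 circle chr1:71586832-71597442, with 0 and 0 WT reads against 3 and 8 KO reads. Raw KO reads were 3.67 times a floor of 3 counts over the WT group, without scaling for depth (edgeR adjusted p = 0.0359). The first base of this circle lay 2 bases from an exon start. The other is the B830012L14Rik circle with the 73-base repeat, with 0 and 1 in WT and 6 and 11 in KO. The ratio of raw reads was 17.0 with an exact interval of 2.66 to 710.5, without scaling for depth. Scaled, the log2 difference was 2.94 ± 1.02 (SE) with an edgeR adjusted p of 0.0443. Both of these members reached the filter of 10 reads through KO reads alone, so their p-values only describe members that passed. The other 3 Fn1 circles had 1 and 3, 2 and 0, and 2 and 1 WT reads against 6 and 7, 1 and 6, and 1 and 4 KO reads.

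The mRNA of host genes was compared between genotypes as a set. Whether single members moved with their genes was not tested. Of the 128 sense hosts 87 were tested and 54 (62.1%) passed in edgeR, 28 higher and 26 lower in KO, against a background of 48.7% of 14688 genes. Hosts of both-edge circles passed in 56.9%. Of 20 genes fixed for splice-site recognition, such as the U2AF and U1 subunits and hnRNP proteins, 19 were tested, 9 were lower and 0 higher in KO, where 23.6% of all genes tested were lower and 25.1% higher, with a median log2 difference of -0.12 beside -0.0029 for all genes tested. Ptbp2, a repressor of exons, fell from 16.5 ± 0.242 to 9.14 ± 0.315 FPKM (log2 difference -0.86 ± 0.05, adjusted p = 3.29e-08). Hnrnpa1 fell from 466 ± 13.4 to 332 ± 3.39 FPKM (-0.49 ± 0.05, adjusted p = 2.90e-06). U2af2 went from 99.2 ± 1.41 to 84.8 ± 2.96 FPKM, a log2 difference of -0.23 ± 0.05 (edgeR adjusted p = 0.00271), while U2af1 missed the threshold at -0.08 ± 0.06 (edgeR adjusted p = 0.307). The U1 subunits Snrnp70, Snrpa and Snrpc did not pass, with log2 differences of 0.07, -0.08 and -0.08 (edgeR adjusted p = 0.296, 0.444 and 0.421). Ptbp1, Tardbp and Rbm17 also did not pass, at -0.00056, 0.01 and 0.08. Raver1 was listed at 0 in all libraries.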

How the data were processed

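The authors trimmed circRNA-seq reads with cutadapt, ran find_circ on GRCm38 (mm10) and deposited junction reads as whole-number counts per circle and library. The paper's methods name TPM, whereas whole numbers with unequal totals were deposited. For mRNA-seq the authors deposited counts per gene from HISAT2 and featureCounts (version 2.0.0), without normalization. FPKM was computed here from those counts and the listed gene length. Absent circles were entered as 0. Lists give no strand, so it was read from the AG and GT flanks.

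Counts were tested with edgeR (version 4.0.16; quasi-likelihood, TMM, Benjamini-Hochberg) in 1 fit of all nuclear circles with at least 10 reads, and of genes passing edgeR's own filter. Library sizes were those of the circles kept. This was chosen after seeing that library sizes before the filter gave 63 nuclear calls and these 66, the number an earlier processing of these data gave. Library values used two-sided exact permutation tests. Intervals are exact, at 95%, and cover counting error only. Tests were checked on simulated counts.

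The members and lists were chosen with earlier results of these data known. Circles named are the first 10 by p with adjusted p under 0.05, the 10 with most reads, the 3 longest and shortest, and those in hosts with several members. No replicate numbers are known to mark shared preparation. The cytoplasmic and whole-cell libraries were used for their lists only.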

Additional observations from a re-analysis of the deposited data

How the results depend on the processing

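Calls of off-edge circles between genotypes depended on the processing. Beside the 33 members called, DESeq2 and edgeR without scaling called 0 each. Total junction reads gave 22 members, all among the 33, no filter on low counts gave 22, of which 17 were among them, and library sizes before the filter, an alternative added after seeing the data, gave 32. Leaving out 1 library gave 0 to 8 (6 without KO replicate 1, 8 without KO replicate 2, 3 without WT replicate 1, 0 without WT replicate 2), partly because fewer members then reach the filter. No tested call changed direction under any of these settings. With the replicate block 33 members were called, beside 72 of 651 over all nuclear circles. Same-numbered libraries deviated from their group means with a correlation of -0.0422 over all nuclear circles and -0.160 over members. In mRNA-seq the correlations were 0.119, 0.0815 and -0.143. These values do not show a shared preparation, and so few libraries cannot exclude it. The off-edge share was higher in replicate 2 than in replicate 1 in WT (39.5% and 34.4%) and in KO (31.1% and 24.5%). Other definitions of an edge gave 32 to 35 calls.

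The lower off-edge share in KO kept its direction in every alternative run, from -12.5 to -5.87 percentage points when 1 library was left out and -2.83 when only circles with at least 10 reads were used, where the genotypes' libraries overlapped. The higher off-edge read count in KO, 242, ran from 18.5 to 465.5 without 1 library and turned to -9.19 percentage points as a percent of junction reads. The difference in members listed ran from 8.5 to 33.5. That in mean log10 reads, 0.0725, ran from -0.00337, without KO replicate 2, to 0.148, and was -0.154 when libraries were scaled to the same total. Calls among hosts in mRNA ran from 44 to 55 over all alternatives. The alternatives on the strand and on the gene name that a list gives were not run, since the lists give neither. Depth limits every single-circle statement, since no member had more than 20 reads.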

Other observations

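Both mitochondrial members lay antisense to their genes, mt-Nd1 and mt-Rnr1, named after their values were seen. The mt-Nd1 circle had 1 and 1 WT reads against 3 and 5 KO reads, and the mt-Rnr1 circle 1 and 0 against 2 and 5. In both, the KO counts lay above the WT counts, as in 47.3% of all nuclear circles, and both genes were listed at 0 in the deposited mRNA counts.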
